A study of Mus musculus with 6 samples.

Results

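Wnt signaling was followed through 38 of the 22295 genes of the count table, chosen by name: 10 Wnt ligands, 12 receptors and co-receptors, 3 secreted inhibitors, 7 feedback inhibitors and targets, and 6 genes of the destruction complex, the catenins and the nuclear effectors. Wnt ligands are secreted lipid-modified proteins that bind Frizzled receptors. With the co-receptors Lrp5 or Lrp6, they stop a complex built on Axin and Apc from marking β-catenin for destruction, and β-catenin then acts in the nucleus with Lef/Tcf proteins. In the hair follicle (HF) this pathway is known for its part in the activation of stem cells at the start of growth and in the specification of the hair shaft, and several of its targets, Axin2 among them, feed back to limit it.

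Transcripts were counted in keratinocytes sorted for GFP from the skin of 3 K19 *Itga3* WT mice and 3 K19 *Itga3* KO mice, with 1 library per mouse. WT mice carried K19(Cre-ERT) and mTmG, and KO mice carried Itga3 fl/fl in addition. Both were on the FVB background. All mice, controls included, received tamoxifen at 6 weeks of age (10 mg/ml over 4 days, as labelled), 1 dose of DMBA (30 µg in 200 µl acetone) at 7 weeks and then TPA (12.34 µg per application) for a further 2 weeks, applied bi-weekly. Cre is active in K19-expressing cells of the hair bulge (HB), so the sorted cells are HB keratinocytes and their progeny, and no untreated mice were compared. The question behind the comparison is what loss of integrin α3β1 from HB keratinocytes does to their transcripts during the initiation stage of skin tumorigenesis.

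Depth was 20578309 to 23670507 counts per library. Itga3 stood at 371, 252 and 271 CPM (counts scaled to the size of each library and by TMM factors, edgeR's correction for composition) in WT libraries a, b and c and at 131, 124 and 134 CPM in KO libraries a, b and c (log2 fold change −1.204, standard error 0.13, adjusted p = 0.00283), with no overlap between the genotypes. The call was lost without WT c (adjusted p = 0.130) and without KO a (adjusted p = 0.0934). The letters follow the order of the table and name no mouse. Keratinocyte and bulge markers summed to 33364 to 50623 CPM in WT and 38678 to 44929 CPM in KO libraries, with Krt5 and Krt15 making up most of the sum. Of these 11 genes 1 passed the test: Cd34, a surface marker of the bulge, was lower in KO. Krt19, whose promoter drives Cre, stood at 4.77, 2.20 and 3.00 CPM in WT and 3.02, 2.95 and 2.22 CPM in KO. Of the marker lists of 4 other cell types, immune genes (Cd74 the most abundant) summed to 6.05 to 10.9 CPM in WT and 6.25 to 9.96 CPM in KO libraries, melanocyte genes (Dct) to 7.71 to 15.5 CPM in WT and 11.9 to 13.3 CPM in KO libraries, endothelial genes (Kdr) to 2.38 to 3.70 CPM in WT and 2.76 to 3.66 CPM in KO libraries, and fibroblast genes (Col1a1) to 121 to 184 CPM in WT and 55.5 to 91.1 CPM in KO libraries. Markers of interfollicular differentiation (Krt1) summed to 1382 to 1964 CPM in WT and 1749.6 to 1842 CPM in KO libraries. In these bulk samples, fewer cells of a type and less RNA per cell cannot be told apart.

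All 38 genes were detected in every library, and 36 of them never fell under 10 counts (Wnt7a had as few as 7 and Wnt16 as few as 5). In the edgeR test of KO against WT, 1 of the 38 passed an adjusted p of 0.05, which was Wnt5a, higher in KO. None was lower past this threshold. Over all 21681 genes tested, 0.673% passed, 0.461% as higher and 0.212% as lower. The groups did not overlap for 15 of the 38 genes (39.5%), 7 higher and 8 lower in KO. This held for 16.3% of all genes tested, and for 21.8% of those that never fell under 10 counts in a library (10.9% in each direction), as was true of all 15. At an unadjusted p below 0.05 there were 14 of the 38 (6 higher, 8 lower), against 11.5% of all genes. This share was not computed among the 13054 genes that never fell under 10 counts, so the 2 sets are unlike in level. Below an adjusted p of 0.1 there were 3 (Wnt5a, Fzd2 and Fzd10), against 1.66% of all genes. DESeq2 called 4 (Wnt5a, Fzd2, Fzd10 and Axin2), against 3.99% of the genes to which it gave an adjusted p, and limma-voom called none, against 0.111%. With thresholds on fold change and level added, edgeR called none of the 38, against 0.434% of all genes. The median log2 fold change of the 38 genes was 0.0035, with 19 above 0 and 19 below, and the median over all genes tested was 0.00. The differences of the 38 genes thus ran in both directions.

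**Figure D1:**
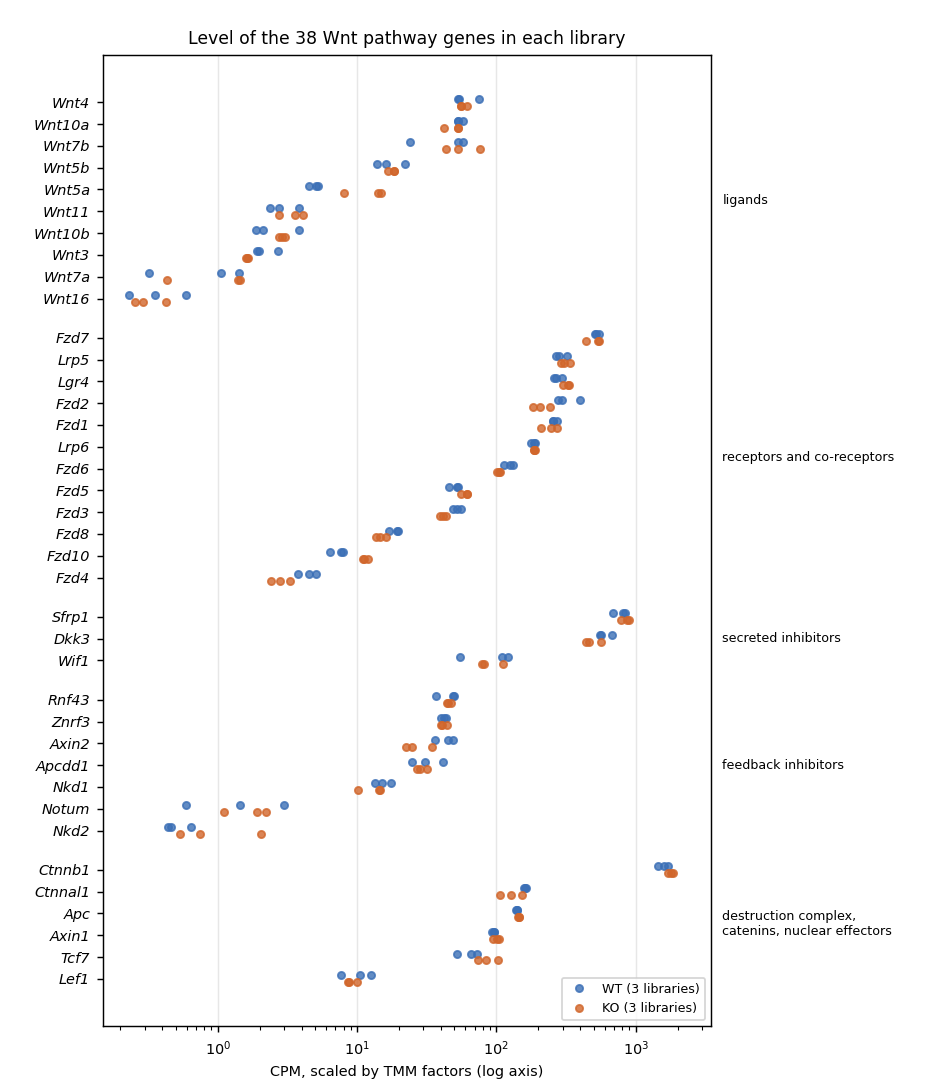
Level of each of the 38 genes in CPM scaled by TMM factors (horizontal log axis), ordered by mean level within each role, with 1 point per library (blue WT, orange KO). Levels span from 0.229 CPM at the lowest for Wnt16 to 1849.8 CPM at the highest for Ctnnb1, and the 3 KO points of Wnt5a lie to the right of its 3 WT points.

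For 22 of the 38 genes RefSeq (GRCm38.p6, the C57BL/6J reference, whereas the mice were FVB) gave a sequence before an annotated transcript start that was read here, 31 windows of 250 bases in all. These were searched on both strands for CTTTGAA and CTTTGAT, the letters that Lef/Tcf proteins are known to prefer. A match was found in 2 of the 31 windows (6.45%), against 2457 of 32851 windows of all genes (7.48%), from which no chromosome was left out. The windows of the 38 genes were richer in G and C, with a median of 66.4% against 52.4% over all windows, and held a median of 16 CpG against 6. Of the matches, 1 lay before Wnt11 (capitals, bases 51 to 45 before the start, the reverse complement of CTTTGAT) and the other in a window inside Wnt5b. The following 4 are shown because they are the Wnt11 match, the feedback target Axin2, and Fzd4 and Lgr4, which lay on opposite sides of the comparison. The last 3 hold neither set of letters.
Wnt11, chr7:98834862-98835111, plus strand: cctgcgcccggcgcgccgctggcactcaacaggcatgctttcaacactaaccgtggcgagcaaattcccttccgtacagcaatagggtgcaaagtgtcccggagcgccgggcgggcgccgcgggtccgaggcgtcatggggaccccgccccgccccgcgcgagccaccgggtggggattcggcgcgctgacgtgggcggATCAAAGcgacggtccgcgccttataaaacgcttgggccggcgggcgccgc
Axin2, chr11:108920099-108920348, plus strand: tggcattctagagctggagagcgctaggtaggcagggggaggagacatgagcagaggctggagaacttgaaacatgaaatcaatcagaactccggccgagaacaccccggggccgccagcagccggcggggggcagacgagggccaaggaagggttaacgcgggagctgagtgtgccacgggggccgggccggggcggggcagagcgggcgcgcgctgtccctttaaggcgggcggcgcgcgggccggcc
Fzd4, chr7:89404116-89404365, plus strand: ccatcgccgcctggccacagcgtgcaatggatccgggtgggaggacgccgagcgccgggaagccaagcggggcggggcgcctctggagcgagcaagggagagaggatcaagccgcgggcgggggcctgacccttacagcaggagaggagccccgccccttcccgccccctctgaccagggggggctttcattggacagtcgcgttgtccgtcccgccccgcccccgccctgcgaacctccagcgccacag
Lgr4, chr2:109917397-109917646, plus strand: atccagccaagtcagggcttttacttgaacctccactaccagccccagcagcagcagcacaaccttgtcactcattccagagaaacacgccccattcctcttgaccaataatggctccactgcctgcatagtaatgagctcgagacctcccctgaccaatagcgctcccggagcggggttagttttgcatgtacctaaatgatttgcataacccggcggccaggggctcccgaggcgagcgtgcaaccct
A match is a string of letters and not a measured binding site, and no binding was measured here. GC content was 70.8% before Wnt11, 69.2% before Axin2, 72.8% before Fzd4 and 55.6% before Lgr4.

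Among the ligands, Wnt5a rose in KO. Wnt5a (ENSMUSG00000021994, chr14:28504750-28527447), a ligand best known for signaling that does not go through β-catenin, stood at 5.23, 5.04 and 4.50 CPM in WT libraries a, b and c and at 14.1, 8.11 and 14.8 CPM in KO libraries a, b and c, on 102 to 331 counts per library. Each KO library lay above each WT library, and KO b lay between the WT libraries and the other KO libraries. The mean was 4.92 ± 0.381 CPM in WT and 12.3 ± 3.67 CPM in KO (SD, n = 3 each), a ratio of 2.50 (log2 fold change 1.32, standard error 0.22, adjusted p = 0.0251). The call did not hold in limma-voom (adjusted p = 0.132), nor after genes with few counts were left out (adjusted p = 0.127 among genes that never fell under 10 counts), while DESeq2 gave 4.0e-05. It was lost without any 1 of WT b, WT c, KO a or KO c, whereas the log2 fold change stayed between 1.17 and 1.56.

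The 3 ligands with the highest level per kb of exon did not pass the test. Wnt10a, a ligand of the β-catenin branch expressed in follicles and teeth, stood at 53.1, 52.7 and 57.3 CPM in WT and 42.4, 53.1 and 53.3 CPM in KO (log2 fold change −0.13, standard error 0.11, adjusted p = 0.681). Wnt4 stood at 53.5, 53.8 and 75.7 CPM in WT and 55.9, 55.9 and 62.0 CPM in KO (log2 fold change −0.07, standard error 0.13, adjusted p = 0.855). Wnt7b, known from HB and matrix cells, varied most among the abundant ligands, with 58.0, 52.9 and 23.9 CPM in WT and 43.5, 53.5 and 76.5 CPM in KO (log2 fold change 0.37, standard error 0.28, adjusted p = 0.671). For these 3 genes the genotypes overlapped, and WT c held both the highest Wnt4 and the lowest Wnt7b level. The only other ligand without overlap was Wnt3, which signals through β-catenin. It had 1.93, 1.97 and 2.69 CPM in WT and 1.62, 1.64 and 1.60 CPM in KO (log2 fold change −0.44, standard error 0.26, adjusted p = 0.573), on 33 to 61 counts per library. Wnt5b, Wnt7a, Wnt10b, Wnt11 and Wnt16 overlapped, with log2 fold changes of −0.28 (Wnt16) to 0.24 (Wnt7a) and adjusted p from 0.729 to 0.951.

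Levels of different genes were compared as CPM per kb of exon, averaged over the 6 libraries. Wnt10a (21.1 CPM per kb), Wnt4 (14.2), Wnt7b (10.5) and Wnt5b (6.64) came first, each overlapping the next in its range over libraries. A gap without overlap separated them from Wnt5a (1.102), Wnt10b (0.813), Wnt11 (0.782) and Wnt3 (0.620), which again overlapped as neighbours, and another gap from Wnt7a (0.320) and Wnt16 (0.0820). Wnt4, Wnt10a and Wnt7b together held 78.4% to 85.0% of the summed ligand level in each library. Wnt5a held 1.14 ± 0.120% of the summed level in WT and 2.80 ± 0.882% in KO libraries (SD, n = 3), so it remained a small share of the ligand transcripts in KO. Summed over the 10 ligands, the level was 55.5 ± 2.36 CPM per kb in WT and 56.7 ± 6.58 CPM per kb in KO (SD, n = 3), and the genotypes overlapped.

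**Figure D2:**
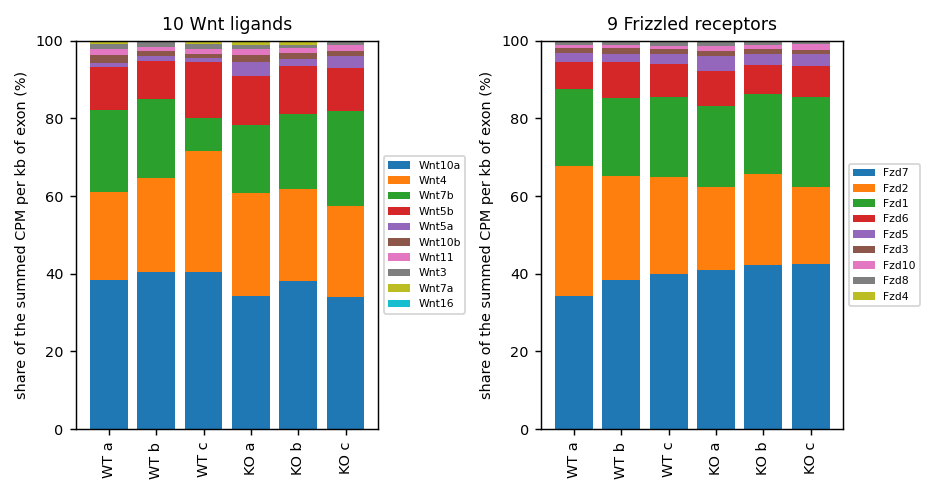
Share of each gene in the summed CPM per kb of exon (vertical axis, percent) of the 10 ligands (left) and the 9 Frizzled genes (right), with 1 stacked bar per library. Wnt10a, Wnt4 and Wnt7b fill 78.4% to 85.0% of the ligand bars, and Fzd7, Fzd2 and Fzd1 fill 83.2% to 87.5% of the Frizzled bars.

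Frizzled genes encode the receptors that bind Wnt ligands at the cell surface, and 9 of them were among the 38 genes. None passed an adjusted p of 0.05 in edgeR, where 7 had an unadjusted p below 0.05, against 11.5% of all genes. In limma-voom none passed either, and in DESeq2 2 did (Fzd2 and Fzd10), against 3.99% of the genes to which it gave an adjusted p. The genotypes did not overlap for 7 of the 9, of which Fzd2, Fzd3, Fzd4, Fzd6 and Fzd8 were lower in KO and Fzd5 and Fzd10 were higher. Over all genes tested, 8.23% were lower and 8.03% were higher without overlap. Among genes that never fell under 10 counts in a library, as was true of all 9, it was 10.9% in each direction.

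Fzd2 (ENSMUSG00000050288, chr11:102604396-102608058) stood at 399.9, 294 and 278.03 CPM in WT and 184, 243 and 205 CPM in KO, with means of 324 ± 66.2 and 211 ± 30.2 CPM (SD, n = 3). The difference was −0.62 on the log2 scale (standard error 0.15, adjusted p = 0.0861 in edgeR, 0.174 in limma-voom and 0.00892 in DESeq2). WT a was above the other WT libraries by more than those differed from each other. Without it the log2 fold change was −0.43 (adjusted p = 0.0802). Fzd10 (ENSMUSG00000081683, chr5:128600844-128604093) was higher in each KO library, with 6.42, 7.92 and 7.63 CPM in WT and 11.01, 11.2 and 11.9 CPM in KO (log2 fold change 0.64, standard error 0.15, adjusted p = 0.0861, and 0.00977 in DESeq2). The 3 KO libraries of Fzd10 lay within 1 CPM of each other. Its neighbour in level per kb was Fzd8, which stood at 19.7, 17.1 and 19.5 CPM in WT and 16.1, 14.6 and 13.8 CPM in KO (log2 fold change −0.34, standard error 0.13, adjusted p = 0.310).

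Fzd4, which also serves as the receptor of Norrin, was the lowest Frizzled per kb, at 4.50, 3.76 and 5.07 CPM in WT and 2.81, 3.33 and 2.42 CPM in KO (log2 fold change −0.64, standard error 0.22, adjusted p = 0.259). Fzd3, known with Fzd6 for planar polarity, stood at 52.0, 55.6 and 48.9 CPM in WT and 39.3, 41.5 and 43.4 CPM in KO (log2 fold change −0.33, standard error 0.10, adjusted p = 0.169). Fzd6, which is needed for hair orientation, had 113, 132 and 125 CPM in WT and 101, 106 and 105 CPM in KO (log2 fold change −0.25, standard error 0.09, adjusted p = 0.292). In these 3 genes all KO values lay under all WT values. Fzd5 was above WT in each KO library, with 52.0, 45.7 and 53.2 CPM in WT and 62.1, 55.7 and 61.3 CPM in KO (log2 fold change 0.25, standard error 0.10, adjusted p = 0.349). The most abundant Frizzled per kb, Fzd7, overlapped between the genotypes, with 509.8, 522 and 543 CPM in WT and 438, 549 and 541 CPM in KO (log2 fold change −0.04, standard error 0.11, adjusted p = 0.894). So did Fzd1, with 273, 255 and 257 CPM in WT and 208, 247 and 273 CPM in KO (log2 fold change −0.11, standard error 0.11, adjusted p = 0.681). For both, KO a was the lowest library of all.

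Per kb of exon, the order of the receptors was Fzd7 (114 CPM per kb), Fzd2 (73.0), Fzd1 (60.1) and Lgr4 (50.7), with overlap between neighbours. Lrp5 (31.1), Fzd6 (23.6), Lrp6 (13.6) and Fzd5 (7.95) followed without overlap. Fzd3 (3.65), Fzd10 (2.88) and Fzd8 (2.81) overlapped as neighbours, and Fzd4 (0.543) was last. Summed over the 9 Frizzled genes, the level was 328, 300.4 and 301 CPM per kb in WT and 236, 286 and 281 CPM per kb in KO. Every KO sum was below every WT sum. The mean sums were 310 CPM per kb in WT and 268 in KO. Most of that difference lay in Fzd2, with means of 88.5 CPM per kb in WT and 57.6 in KO. Fzd2 held 28.4 ± 4.31% of the summed level in WT and 21.5 ± 1.66% in KO libraries (SD, n = 3), and Fzd7 held 37.5 ± 2.83% of the summed level in WT and 41.9 ± 0.843% in KO libraries. The share of Fzd7 was higher in KO although its own level overlapped between the genotypes (means of 115.8 CPM per kb in WT and 112.4 in KO).

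The remaining receptors had log2 fold changes of 0.22 or less. Lgr4, the receptor of R-spondins, which strengthen Wnt signaling, stood at 269.9, 296 and 261 CPM in WT and 326, 301 and 335 CPM in KO, each KO library above each WT library (log2 fold change 0.22, standard error 0.09, adjusted p = 0.393). Lrp5 and Lrp6, which bind Wnt ligands together with Frizzled receptors, overlapped between the genotypes, with log2 fold changes of 0.09 (standard error 0.10) and 0.02 (standard error 0.08). The standard error of Lrp6 was among the smallest of the 38, which ranged from 0.08 (Apc) to 0.53 (Wnt7a).

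**Figure D3:**
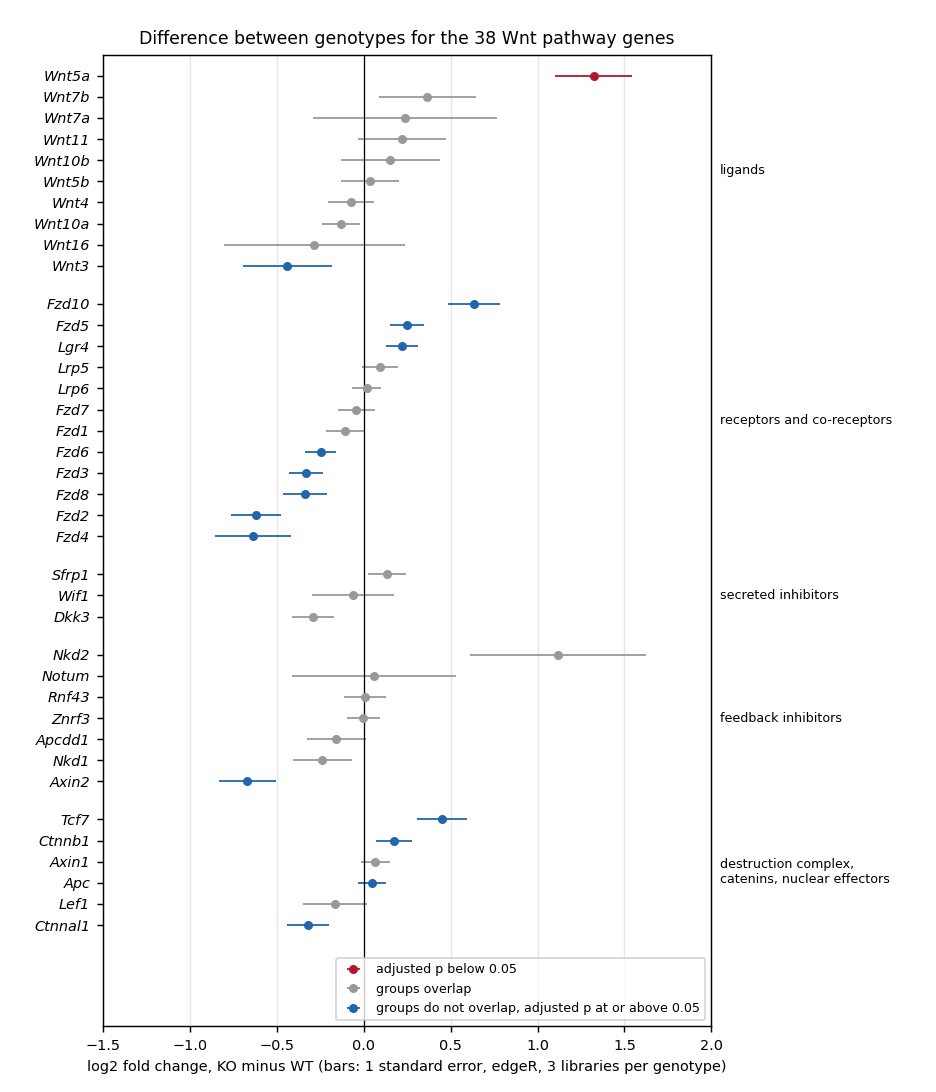
Log2 fold change of KO against WT (horizontal axis) for the 38 genes by role, with bars of 1 standard error from edgeR on 3 libraries per genotype. Wnt5a (red) is the gene with an adjusted p below 0.05, and the 14 blue genes, whose groups do not overlap, lie between −0.67 (Axin2) and 0.64 (Fzd10).

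The secreted inhibitors were abundant, and none passed the test. Sfrp1, which binds Wnt ligands outside the cell, stood at 844, 683 and 806 CPM in WT and 896, 790.4 and 873 CPM in KO (log2 fold change 0.13, standard error 0.11, adjusted p = 0.681). Dkk3, a member of the Dickkopf family, had 678, 556 and 563 CPM in WT and 464, 562 and 439.8 CPM in KO (log2 fold change −0.29, standard error 0.12, adjusted p = 0.369). Wif1, another protein that binds Wnt ligands, had 121, 54.7 and 109.6 CPM in WT and 81.6, 113 and 79.2 CPM in KO (log2 fold change −0.06, standard error 0.24, adjusted p = 0.942). All 3 genes overlapped between the genotypes, with WT b low for Wif1. By mean CPM, Sfrp1 ranked 105 and Dkk3 ranked 196 of the 21681 genes tested. Per kb of exon, Sfrp1 (187 CPM per kb) and Dkk3 (162) overlapped, and Wif1 (38.3) lay below both.

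Among the feedback inhibitors and targets, Axin2 was the only gene without overlap. Axin2 (ENSMUSG00000000142, chr11:108920349-108950783), a scaffold of the destruction complex and a widely used target of β-catenin, stood at 48.9, 45.03 and 36.2 CPM in WT and 24.7, 34.5 and 22.6 CPM in KO. The means were 43.4 ± 6.54 and 27.3 ± 6.36 CPM (SD, n = 3), and KO b was just below the lowest WT library. The difference was −0.67 on the log2 scale (standard error 0.16, adjusted p = 0.1003 in edgeR, 0.180 in limma-voom and 0.0167 in DESeq2). Without KO b it was −0.86 with an adjusted p of 0.0307. No other omission of a library gave a call: over the 6 omissions the log2 fold change reached −0.55 and the adjusted p 0.567.

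For the other feedback genes the genotypes overlapped. Rnf43 and Znrf3, ubiquitin ligases that remove Frizzled receptors from the membrane, had nearly equal means in the genotypes. Rnf43 stood at 49.7, 37.1 and 48.7 CPM in WT and 44.0, 45.3 and 47.0 CPM in KO (log2 fold change 0.0090, standard error 0.12). Znrf3 stood at 43.6, 40.2 and 41.9 CPM in WT and 40.7, 40.4 and 44.3 CPM in KO (log2 fold change −0.0019, standard error 0.10). Their log2 fold changes had a smaller absolute value than their standard errors. Nkd1, an inhibitor of Dishevelled, and Apcdd1, an inhibitor at the membrane, had log2 fold changes of −0.24 and −0.16 (adjusted p = 0.642 and 0.705). Nkd2 and Notum, the latter an enzyme that removes the lipid of Wnt ligands, were the lowest of this role per kb. The log2 fold change of Nkd2 (1.12, standard error 0.51, adjusted p = 0.427) rested on KO a, with 0.459, 0.641 and 0.441 CPM in WT and 2.04, 0.750 and 0.532 CPM in KO, and it was 0.32 without that library. Per kb of exon, Rnf43 (6.91 CPM per kb), Axin2 (6.42) and Znrf3 (5.30) overlapped as neighbours, as did Nkd1 (3.11) with Apcdd1 (2.39) and Notum (0.710) with Nkd2 (0.168), with gaps between these sets.

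**Figure D4:**
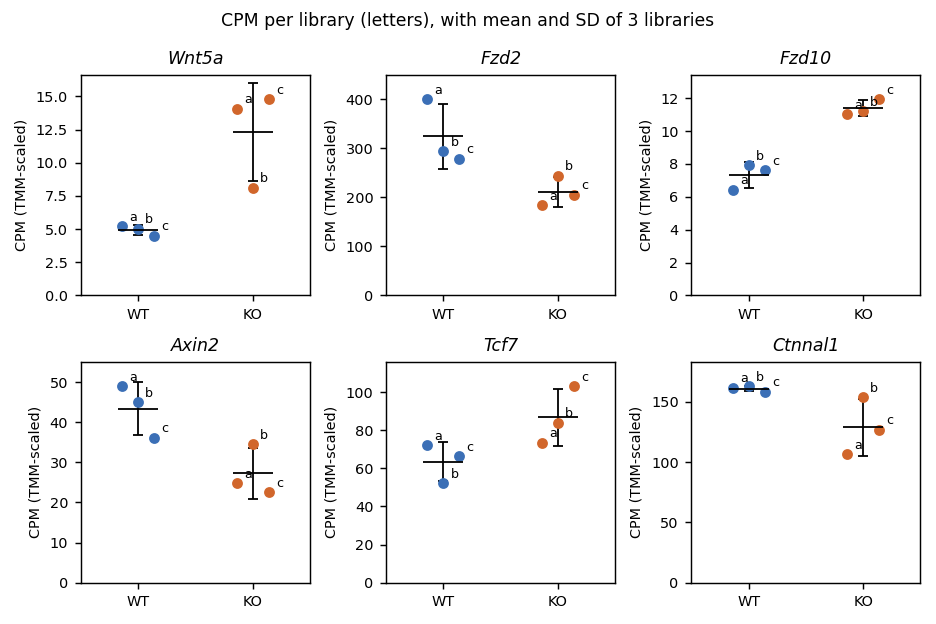
CPM scaled by TMM factors (vertical axes, from 0) of 6 genes whose groups do not overlap, with 1 point per library (letters a to c), a line at the mean and bars of 1 SD of 3 libraries. For Wnt5a, Fzd2, Axin2 and Ctnnal1, KO b is the KO library nearest to WT, at 8.11 CPM for Wnt5a and 34.5 CPM for Axin2.

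Ctnnb1, which encodes β-catenin, was the most abundant of the 38 genes, at 1597, 1451 and 1698 CPM in WT and 1849.8, 1700.4 and 1807 CPM in KO. Each KO library was above each WT library, though KO b and WT c differed by less than 3 CPM (log2 fold change 0.17, standard error 0.10, adjusted p = 0.577). Tcf7 (ENSMUSG00000000782, chr11:52252371-52283014), which encodes the nuclear effector TCF1, stood at 72.1, 52.1 and 66.2 CPM in WT and 73.4, 83.9 and 103 CPM in KO (log2 fold change 0.45, standard error 0.14, adjusted p = 0.205). Lef1, its relative in the hair shaft lineage, was lower in level and overlapped (log2 fold change −0.16, standard error 0.19, adjusted p = 0.727). These effectors therefore had fold changes of opposite sign, neither past the threshold. Ctnnal1, which encodes the α-catenin-like protein α-catulin, stood at 162, 163 and 158 CPM in WT and 106, 153 and 127 CPM in KO (log2 fold change −0.32, standard error 0.12, adjusted p = 0.316). Apc, a scaffold of the destruction complex, had 138, 141 and 139.8 CPM in WT and 145, 142 and 145 CPM in KO, without overlap but by only 0.05 on the log2 scale (standard error 0.08, adjusted p = 0.841). Axin1, the constitutive counterpart of Axin2, had 93.5, 96.2 and 96.2 CPM in WT and 100.4, 94.7 and 104 CPM in KO (log2 fold change 0.07, standard error 0.08, adjusted p = 0.759). Per kb of exon, Ctnnb1 (324 CPM per kb) lay far above Tcf7 (28.6) and Axin1 (25.5), which overlapped, and Ctnnal1 (18.9), Apc (8.80) and Lef1 (1.102) followed without overlap.

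The 14 genes without overlap that were not called had adjusted p from 0.0861 to 0.841 and absolute log2 fold changes from 0.05 to 0.67. With 3 libraries per genotype, the exact permutation test cannot give a p below 0.1, and all 15 genes without overlap stood at that value. In 11 of these 15 genes, KO b was the KO library nearest to the WT mean (73.3%). Among all genes without overlap that never fell under 10 counts this was so for 1618 of 2846 (56.9%), and among the 146 genes called in the comparison for 118 (80.8%). The place of KO b was thus shared with genes outside the pathway.

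**Figure D5:**
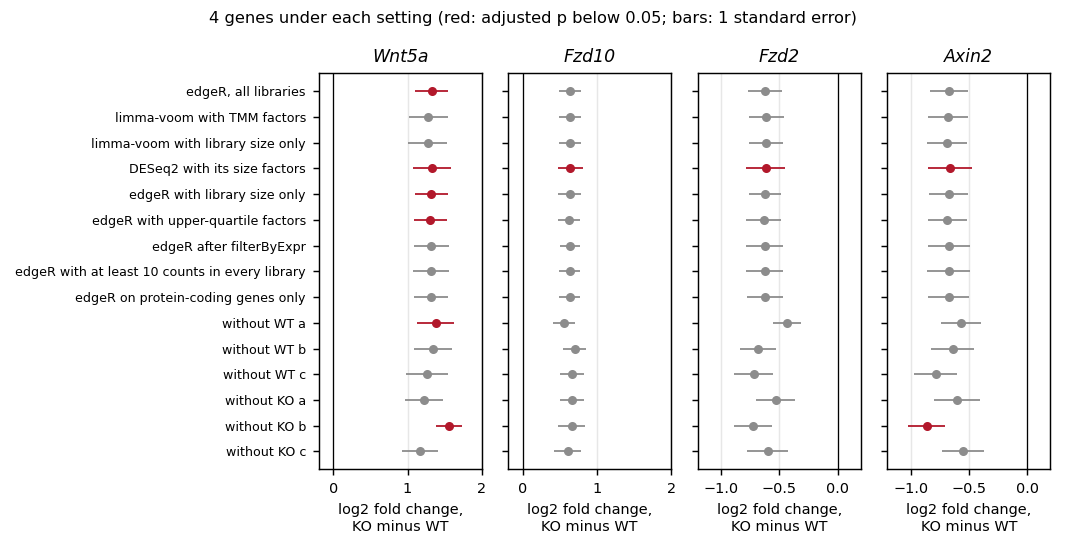
Log2 fold change of KO against WT (horizontal axes, bars of 1 standard error) for 4 genes in the edgeR test, under the 8 other ways of testing and without each library in turn, in red where the adjusted p was below 0.05. All points of a gene lie on 1 side of 0, and Wnt5a stays between 1.17 and 1.56.

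Spread between mice differed among the 38 genes. The median coefficient of variation was 12.3% in WT and 8.59% in KO. It was over 30% for 6 genes in WT (Wnt7a, Wnt7b, Wnt10b, Wnt16, Wif1 and Notum) and for 3 in KO (Wnt7a, Nkd2 and Notum). For Wnt7b in WT it was 41.0%, where counting alone gives 3.18%, and for Wif1 in WT 37.1%, where counting gives 2.18%. Counting error was therefore a small part of the spread of these abundant genes. For Notum in WT the coefficient was 72.1%, against 16.4% from counting.

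Markers of the bulge and of other parts of the HF also differed between the genotypes. Cd34 stood at 881, 806 and 872 CPM in WT and 399, 625 and 526 CPM in KO (log2 fold change −0.72, standard error 0.14, adjusted p = 0.0462, and 0.119 in limma-voom), all KO values under all WT values. Lgr5, a bulge stem cell marker and R-spondin receptor, stood at 695, 463 and 600.4 CPM in WT and 362, 530.2 and 381 CPM in KO, and the genotypes overlapped (log2 fold change −0.47, standard error 0.17, adjusted p = 0.283). No other gene of the keratinocyte and bulge list had an unadjusted p below 0.05. Markers of the upper follicle summed to 2608 to 3212 CPM in WT and 3607 to 5599 CPM in KO libraries. Of these 5, Plet1 and Krt17 passed the test as higher, and Gata6 was lower in mean. Those of the matrix and shaft (11 measured) summed to 176 to 205 CPM in WT and 204 to 237 CPM in KO libraries. There Krt25, Krt28 and Krt35 passed as higher, on 4 to 213 counts per library. Over all genes tested, 0.461% passed as higher, and limma-voom called none of these markers. Krt17, Krt25, Krt28 and Krt35 lie 4.24 to 5.18 Mb from Itga3 on chromosome 11. Krt10, Krt14, Krt15, Krt19 and Krt27 lie in the same stretch (4.27 to 5.13 Mb) and were not called (adjusted p from 0.647 to 0.966). Genes known from the dermal papilla, a source of Wnt5a in skin, summed to 21.03 to 25.8 CPM in WT and 36.7 to 55.9 CPM in KO libraries. The sort on GFP selects for the K19-expressing lineage, and whether dermal papilla cells were present was not tested. Most of the dermal papilla sum was Prdm1, which keratinocytes also express and which passed the test as higher (17.0, 19.6 and 14.9 CPM in WT and 52.5, 29.0 and 38.01 CPM in KO). Of the other 6 genes of the list, Crabp1 and Hhip had log2 fold changes of −0.47 and 0.68 (adjusted p = 0.638 and 0.588), and Corin, Sox2, Alx4 and Alpl never exceeded 3 counts in a library. The fibroblast sum was lower in each KO library than in each WT library, but its genes went both ways. None of the 7 passed in edgeR or limma-voom. In edgeR 5 had an unadjusted p below 0.05, against 11.5% of all genes, 2 higher (Dcn and Col3a1) and 3 lower. Lower in mean were Col1a1 (log2 fold change −1.19, adjusted p = 0.127), Col1a2 (−1.18, adjusted p = 0.0555) and Pdgfra (−1.30, adjusted p = 0.203). Of these, Col1a1 lies 0.0914 Mb from Itga3 on chromosome 11. Higher in mean were Dcn (1.84, adjusted p = 0.113) and Vim (0.45, adjusted p = 0.529), while Col3a1 was at 0 in every WT library and at 0.128, 0 and 1.40 CPM in KO, and Lum did not exceed 0.141 CPM in any library. DESeq2 called Col1a2 (adjusted p = 0.000730) as lower and Dcn (0.0161) as higher, against 3.99% of the genes to which it gave an adjusted p. The part of these markers in the values of Wnt5a and of the other Wnt genes was not tested.

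Of 73 further genes of the pathway, 69 were matched and 67 had a count in at least 1 library. None of the 67 passed in edgeR, where 13 (19.4%) had an unadjusted p below 0.05 (8 higher, 5 lower), against 11.5% of all genes. That 11.5% covers genes of any count, whereas 53 of the 67 never fell under 10 counts. In limma-voom none passed either, and in DESeq2 3 did (Fzd9, Tle3 and Cd44), against 3.99% of the genes to which it gave an adjusted p. Without WT a, edgeR called 5, but it then called 521 of all 21387 genes tested, against 146 of 21681 with all libraries. The genotypes did not overlap for 20 of the 67 (29.9%), 13 higher and 7 lower, against 16.3% of all genes tested and 21.8% of those that never fell under 10 counts, and the median log2 fold change was 0.05. The 5 with the smallest p began with Fzd9, another Frizzled receptor, at 5.02 ± 1.42 CPM in WT and 2.24 ± 0.322 CPM in KO (SD, n = 3; log2 fold change −1.16, standard error 0.25, adjusted p = 0.0659). Tle3, a co-repressor that binds Tcf proteins, stood at 124 ± 18.4 CPM in WT and 174 ± 16.5 CPM in KO (log2 fold change 0.49, standard error 0.12, adjusted p = 0.0955). Cd44, an adhesion receptor listed as a target, stood at 650.2 ± 28.0 CPM in WT and 864 ± 80.5 CPM in KO (log2 fold change 0.41, standard error 0.10, adjusted p = 0.102). Prickle2, of planar polarity, had a log2 fold change of −0.40 and Edar, the ectodysplasin receptor, 1.15 (adjusted p = 0.141 and 0.168). Among the genes that make or release ligands, none of 10 had an unadjusted p below 0.05. Of the 13 intracellular transducers, such as the Dishevelled genes and Gsk3b, none did either, nor did any of 3 R-spondins. Such a p was found for 4 of 7 planar polarity genes, 3 of 6 other reported targets and 3 of 6 other secreted inhibitors. It was also found for 2 of 10 other receptors and 1 of 12 other nuclear partners. Of the 6 other secreted inhibitors, 2 never fell under 10 counts.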

How the data were processed

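Strand-specific libraries of polyadenylated RNA from sorted cells of 6 mice (3 per genotype) were compared. The authors aligned the reads with TopHat2 2.1.0 on Bowtie 1.1 (versions from the submitters' processing notes) to mouse build GRCm38 and deposited raw counts of uniquely mapped reads per Ensembl gene, as whole numbers without normalization. Genes with near-identical copies can therefore lose counts. Column names give the genotype and run and animal identifiers, but nothing that ties a column to a numbered sample of the labels, so libraries were used as unnumbered replicates, 1 per mouse as the study describes. P-values measure the spread between these libraries.

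The 21681 genes with any count entered the comparison of KO with WT by the quasi-likelihood F-test of edgeR 4.0.16 in R 4.3.3, with TMM scaling. P-values were adjusted over all of them after Benjamini and Hochberg, and where no tool is named beside an adjusted p, it comes from edgeR. The study used limma with voom, which was run as an alternative (limma 3.58.1), as were DESeq2 1.42.0, other scalings and filters, protein-coding genes alone and leaving out each library. Standard errors were derived from the fold change and its F statistic. Single genes were compared by exact two-sided permutation tests. Exon lengths came from GENCODE vM21 (22049 of 22295 identifiers matched), and coordinates from the count table. The genes, lists and tests were chosen with earlier results of these data known. All 38 genes are named, in full those with an adjusted p below 0.05, those whose groups do not overlap and the 3 of each role with the highest level per kb; of the further genes, the 5 with the smallest p. Scripts were tested on simulated data. Depth was 20578309 to 23670507 counts, so 3 counts correspond to 0.128 to 0.145 CPM, for counting error only. No 2 libraries of the same genotype agreed within sampling noise.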

Additional observations from a re-analysis of the deposited data

How the results depend on the processing

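No paired analysis was possible because nothing in the column names of the count table ties a column to a numbered sample of the labels. Of the 38 genes, 25 kept the direction of their log2 fold change in every setting and 13 did not. The count of Wnt genes past an adjusted p of 0.05 was 1 in edgeR, 4 in DESeq2 (Wnt5a, Fzd2, Fzd10 and Axin2) and 0 in limma-voom with either scaling, where 13 and 14 genes had an unadjusted p below 0.05. It was also 0 in edgeR after filterByExpr (13811 genes), on genes that never fell under 10 counts (13054 genes) and on protein-coding genes only (16636 genes), each with 13 at an unadjusted p below 0.05, and 0 with added thresholds on the log2 fold change (0.6) and the mean log2 CPM (4), which Wnt5a missed on level. Without each library in turn it was 0 to 2: 1 without WT a (Wnt5a), 2 without KO b (Wnt5a and Axin2) and 0 without WT b, WT c, KO a or KO c. The calls over all genes moved as well, from 146 with all libraries. They were 521 without WT a, 123 without WT b, 5 without WT c, 10 without KO a, 201 without KO b and 30 without KO c. The cause was not tested.

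Over these settings the adjusted p of Wnt5a ranged from 4.0e-05 to 0.368, that of Fzd2 from 0.00892 to 0.531, of Fzd10 from 0.00977 to 0.368 and of Axin2 from 0.0167 to 0.567. For the further genes of the pathway the count was 0 in edgeR and limma-voom, 3 in DESeq2 and 0 to 5 without each library (5 without WT a: Fzd9, Tle3, Ccnd1, Edar and Prickle1). Without WT a, 521 of all 21387 genes tested were called. Itga3 kept a log2 fold change of −1.31 to −1.01 without each library, and its call was lost without WT c (−1.27, adjusted p = 0.130) and without KO a (−1.21, adjusted p = 0.0934). With the length of the longest transcript, the summed ligand level was 60.8 CPM per kb in WT and 63.3 in KO, in place of 55.5 and 56.7.

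The log2 fold changes that turned sign lay between −0.28 and 0.24 in the edgeR test. Wif1 stood at 0.0017 in limma-voom with TMM factors, Znrf3 at 0.0010 in DESeq2 and Rnf43 at −0.0062 with upper-quartile factors. Without each library in turn, the log2 fold changes ranged from −0.16 to 0.11 for Wnt4, −0.10 to 0.25 for Wnt5b, −0.17 to 0.68 for Wnt7a, −0.035 to 0.55 for Wnt10b, −0.54 to 0.14 for Wnt16, −0.090 to 0.054 for Fzd7, −0.0070 to 0.049 for Lrp6, −0.34 to 0.16 for Wif1, −0.34 to 0.77 for Notum, −0.31 to 0.065 for Apcdd1, −0.046 to 0.034 for Znrf3, −0.11 to 0.091 for Rnf43 and −0.33 to 0.015 for Lef1. Wnt16 had 5 to 13 counts per library and a standard error of 0.52, so a moderate change was not detectable at this depth.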

Other observations

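Of the 38 genes, 7 lie on chromosome 11, the chromosome of Itga3 (Wnt3, Fzd2, Axin2, Rnf43, Notum, Tcf7 and Znrf3). The nearest, Rnf43 and Fzd2, lie 7.31 and 7.53 Mb from it, Axin2 13.8 Mb and Tcf7 42.8 Mb. The genotypes did not overlap for 4 of these 7 and for 11 of the 31 on other chromosomes. Among all genes that never fell under 10 counts, this share was 25.6% on chromosome 11 and 21.4% on the others. The part of linked sequence around the floxed allele in these values, and in those of the markers near Itga3, was not tested. This split was chosen after the data were seen, as were the comparison of KO libraries by their distance to the WT mean, the coefficients of variation and the share without overlap among genes that never fell under 10 counts.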
